A study of Mus musculus with 16 samples.

Results

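Interferon response genes were followed in 2 fat depots of Lcn2-null mice that had received a viral vector with lipocalin-2 (LCN2) or with green fluorescent protein (GFP). The set holds 34 genes taken by symbol from knowledge of the pathway, 25 targets of type I interferon and 9 gamma-type targets. All 34 were found by symbol and Ensembl row identifier in both expression tables, among 30325 genes of gonadal fat and 30946 genes of subcutaneous fat. In the LCN2 group an AAV8 vector carried lipocalin-2 under the adiponectin promoter, which is active in fat cells, and in the GFP group the vector carried GFP. The construct also held a microRNA122 target sequence at its 3′ end, which leads to loss of the transcript in liver. Both groups were female, on a C57BL/6J background, Lcn2-null from the strain B6.129P2-Lcn2tm1Aade/AkiJ, and fed an HF/HS diet (Research Diets D12266B). The vector was given at 8 weeks of age and fat was taken at 16 weeks. Each depot held 4 LCN2 and 4 GFP samples, 16 samples in all. No sample without a vector was analysed here, so an interferon response to the vector that both groups share cannot be told apart from the level in untreated fat. The labels do not say that replicates came from separate mice, and every p-value below reflects only how much these samples vary, which may be technical.

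Interferons are secreted proteins that cells release when they sense viral nucleic acid or when lymphocytes are activated. Type I interferons bind a receptor made of Ifnar1 and Ifnar2 and act mainly through a complex that includes Stat2 and Irf9 and binds the interferon-stimulated response element (ISRE) of antiviral genes. Interferon gamma, made chiefly by T and NK cells, binds Ifngr1 and Ifngr2 and acts through the gamma-activated site (GAS) of genes such as Irf1 and the GTPases of the IRG and GBP families. The classes overlap, since many targets answer to both. In fat, adipocytes and resident macrophages both carry the receptors.

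The promoters of 8 members are shown because they carry the elements through which these genes are known to be switched on, and they include Igtp, the member with the largest step below. Each is the 130 bases just before the RefSeq start of the gene in GRCm38.p6, read 5′ to 3′ on the gene's own strand. In the GENCODE annotation of the same build some starts differ, so that the Irgm1 window lies inside the gene there and the Gbp2 and Ifit1 windows run past its start. Capitals mark matches to the ISRE letters GAAANNGAAA, which read TTTCNNTTTC on the other strand, and to the GAS letters TTCNNNGAA, which read the same on both strands. The windows are chr11:58199426-58199555 on the plus strand for Igtp, chr11:48871421-48871550 on the minus strand for Irgm1, chr3:142620533-142620662 on the plus strand for Gbp2 and chr3:142530206-142530335 on the plus strand for Gbp7. The others are chr11:53769884-53770013 on the plus strand for Irf1, chr4:156200819-156200948 on the minus strand for Isg15, chr19:34640759-34640888 on the plus strand for Ifit1 and chr5:120907526-120907655 on the minus strand for Oas1a.
Igtp: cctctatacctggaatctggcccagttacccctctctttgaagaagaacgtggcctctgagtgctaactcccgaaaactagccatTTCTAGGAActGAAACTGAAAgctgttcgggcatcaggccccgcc
Irgm1: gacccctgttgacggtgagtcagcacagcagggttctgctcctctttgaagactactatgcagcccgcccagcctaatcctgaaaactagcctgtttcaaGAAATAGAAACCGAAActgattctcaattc
Gbp2: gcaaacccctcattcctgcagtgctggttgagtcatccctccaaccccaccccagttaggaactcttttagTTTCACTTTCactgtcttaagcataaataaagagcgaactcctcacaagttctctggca
Gbp7: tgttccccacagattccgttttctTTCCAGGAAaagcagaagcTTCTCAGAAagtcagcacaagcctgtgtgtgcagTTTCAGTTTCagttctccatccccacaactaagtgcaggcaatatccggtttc
Irf1: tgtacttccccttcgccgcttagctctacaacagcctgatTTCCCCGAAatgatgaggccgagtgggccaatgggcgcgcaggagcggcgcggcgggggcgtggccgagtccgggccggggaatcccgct
Isg15: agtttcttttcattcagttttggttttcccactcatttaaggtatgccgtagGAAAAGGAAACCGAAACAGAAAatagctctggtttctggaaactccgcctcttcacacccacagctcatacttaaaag
Ifit1: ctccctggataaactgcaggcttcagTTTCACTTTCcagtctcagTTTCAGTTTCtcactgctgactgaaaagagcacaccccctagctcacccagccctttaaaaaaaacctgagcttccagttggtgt
Oas1a: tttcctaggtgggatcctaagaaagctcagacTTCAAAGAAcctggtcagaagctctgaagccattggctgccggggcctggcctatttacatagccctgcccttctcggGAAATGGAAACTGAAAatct

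The Igtp window held a GAS match 45 to 37 bases before the start and an ISRE match 34 to 25 bases before it. Irgm1, Isg15 and Oas1a held ISRE matches that overlap each other, 2, 3 and 2 of them in the windows shown. Oas1a also held 1 GAS match, 98 to 90 bases before the start. Gbp7 held 2 GAS matches and 1 ISRE match, Ifit1 held 2 ISRE matches, Gbp2 held 1 ISRE match and Irf1 held 1 GAS match. A promoter was at hand for 26 of the 34 members, which do not include Iigp1 or Zbp1. Within 250 bases before the start, the ISRE letters were present in 6 of 8 gamma-type members (75.0%) and 9 of 18 type I members (50%), against 936 of all 27025 genes (3.46%). The GAS letters were present in 3 of 8 gamma-type members (37.5%) and 3 of 18 type I members (16.7%), against 2197 of 27025 genes (8.13%). A match is a run of letters and not a measured binding site.

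Gonadal values are normalized counts, which are reads divided by 1 size factor per sample, and the 8 libraries held 35173260 to 42890102 reads on genes, with LCN2 replicate 1 the deepest. At this depth 3 reads correspond to 2.49 to 3.40 normalized counts. All 34 members lay above that level, but low values such as those of Oas3 still carry counting error. Subcutaneous values are rlog values, which are regularized log2 counts that pull low genes toward their mean, and their depth is unknown. The 2 tables were normalized separately, so every test was made within a depot. Adipocyte markers were at a summed normalized count of 680031 to 802077 in LCN2 and 621839 to 907614 in GFP gonadal samples, with all 8 markers present. Lcn2, the gene that the LCN2 vector carries, had 186, 189, 522 and 481 normalized counts in LCN2 and 103, 62.1, 70.0 and 89.5 in GFP gonadal samples 1 to 4. The groups did not overlap for Lcn2 in either depot, yet the limma adjusted p was 0.108 in gonadal and 0.308 in subcutaneous fat.

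No interferon response gene passed the test of LCN2 against GFP in either depot. In gonadal fat 0 of 34 members passed an adjusted p of 0.05 in limma over 19536 genes, where 0.102% of all genes passed, and the members' adjusted p lay between 0.326 and 0.997. In subcutaneous fat 0 of 34 passed over 20302 genes, where 0% of all genes passed, and the adjusted p lay between 0.353 and 0.994. At an unadjusted p under 0.05 Dhx58 was higher in LCN2 in gonadal fat, where 7.44% of all genes were higher at that level, and Ifit2 was higher in LCN2 in subcutaneous fat, where 7.81% were. The groups overlapped for all 34 members in both depots, whereas they stood apart for 9.11% of all gonadal genes and 7.08% of all subcutaneous genes. edgeR's quasi-likelihood test and DESeq2 on the recovered gonadal reads also called 0 members, where they called 7 and 818 of all 19536 genes.

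The largest contrast lay within the LCN2 group. LCN2 replicate 1 held the highest of the 8 values for 34 of 34 members in gonadal fat and for 32 of 34 in subcutaneous fat. Over all genes this sample was highest for 9.5% in gonadal and 10.2% in subcutaneous fat. The members were read in the same libraries and respond to shared signals, so these counts are not 34 independent observations. The exceptions in subcutaneous fat were Mx1 and Oas3, both highest in GFP replicate 1.

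The mean of the gamma-type targets, each centred on its own mean over the 8 samples on the log2 scale, was 1.50, −0.30, −0.24 and −0.40 in LCN2 gonadal samples 1 to 4, against −0.06, −0.41, 0.05 and −0.12 in GFP samples 1 to 4. LCN2 averaged 0.14 ± 0.91 and GFP averaged −0.14 ± 0.20 (SD, n = 4 each). LCN2 replicate 1 stood above all others, and the other 3 LCN2 samples lay within the GFP range. The mean of the type I targets was 0.64, 0.08, −0.11 and −0.41 in LCN2 gonadal samples, against −0.02, −0.39, 0.05 and 0.15 in GFP samples. LCN2 averaged 0.05 ± 0.44 and GFP averaged −0.05 ± 0.24. LCN2 replicate 1 was again the highest, by a smaller margin, and LCN2 replicate 4 and GFP replicate 2 were the lowest.

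In subcutaneous fat the gamma-type mean was 0.69, −0.11, −0.16 and −0.18 in LCN2 samples 1 to 4, against 0.03, −0.14, −0.10 and −0.02 in GFP samples 1 to 4. The type I mean was 0.44, −0.08, −0.03 and −0.16 in LCN2 samples, against −0.03, −0.05, −0.14 and 0.05 in GFP samples. The same replicate number was high in this depot, and the spread among the other 7 samples was narrow in both classes. The group means were 0.06 ± 0.42 in LCN2 and −0.06 ± 0.08 in GFP for the gamma-type list, and 0.04 ± 0.27 in LCN2 and −0.04 ± 0.08 in GFP for the type I list (SD, n = 4 each).

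**Figure D1:**
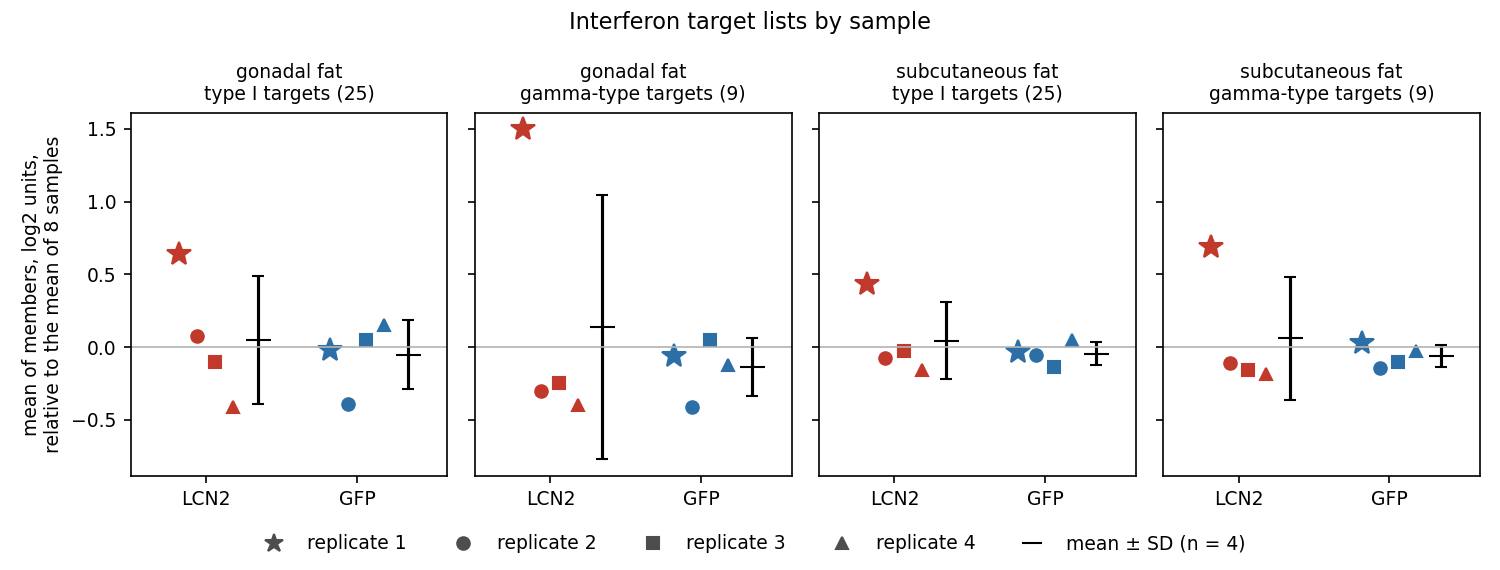
Mean of the gamma-type and type I target lists in each sample, centred per gene over the 8 samples of a depot, on the log2 scale (y axis), for LCN2 and then GFP samples (x axis), with the group mean ± SD. The star for LCN2 replicate 1 sits highest in each panel, at 1.50 (gonadal gamma-type), 0.64 (gonadal type I), 0.69 (subcutaneous gamma-type) and 0.44 (subcutaneous type I).

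The gamma-type members stood furthest apart in gonadal fat, and the immunity-related GTPases led them. Igtp, a GTPase that acts at the vacuoles of intracellular parasites and carries both elements in the promoter shown above, had 5250, 689, 653 and 557 normalized counts in LCN2 samples 1 to 4, against 809, 519, 765 and 785 in GFP samples 1 to 4. LCN2 replicate 1 was at 6.49 times the next sample, and the other 3 LCN2 samples lay within the GFP range. The group means were 1787 ± 2309 in LCN2 and 719 ± 135 in GFP (SD, n = 4 each), a difference of 0.60 ± 0.64 on the log2(value + 1) scale (± SE; limma adjusted p = 0.731). Iigp1, of the same family, had 9881, 1932, 1659 and 1527 normalized counts in LCN2 and 2172, 1253, 2139 and 2160 in GFP. Its LCN2 replicate 1 was at 4.55 times the next sample, and the difference between groups was 0.49 ± 0.55 (limma adjusted p = 0.744). Irgm1, which regulates the other members of the family and autophagy, had 2676, 862, 825 and 749 in LCN2 and 981, 820, 962 and 1067 in GFP, with LCN2 replicate 1 at 2.51 times the next sample. All 3 GTPases thus had 1 high LCN2 sample and 3 LCN2 samples within or below the GFP range.

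The guanylate-binding proteins, GTPases that attack pathogen membranes and vacuoles, had the same shape, with steps smaller than those of Igtp and Iigp1. Gbp7 had 6354, 2204, 2015 and 1911 normalized counts in LCN2 and 2225, 1719, 2379 and 2440 in GFP gonadal samples. Gbp2 had 6483, 2258, 2413 and 2128 in LCN2 and 2503, 2105, 3110 and 2286 in GFP. Gbp3 had 3605, 1350, 1346 and 1342 in LCN2 and 1377, 1357, 1799 and 1469 in GFP. LCN2 replicate 1 was at 2.60, 2.08 and 2.00 times the next sample for Gbp7, Gbp2 and Gbp3. For Gbp3 the other 3 LCN2 samples lay between 1342 and 1350 normalized counts, below all 4 GFP samples. The differences between groups were 0.32 ± 0.36, 0.25 ± 0.33 and 0.21 ± 0.31 for Gbp7, Gbp2 and Gbp3 (log2, ± SE), and the groups overlapped for each.

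The chemokines and the transcription factor of the gamma-type list also peaked in LCN2 replicate 1. Cxcl9, which draws T and NK cells through Cxcr3, had 4375, 1348, 1562 and 1274 normalized counts in LCN2 and 1519, 1476, 2039 and 1383 in GFP gonadal samples. Cxcl10, a ligand of the same receptor, had 409, 106, 173 and 130 in LCN2 and 209, 143, 191 and 126 in GFP. Irf1, the factor that relays the gamma signal to secondary targets, had 3289, 1442, 1456 and 1530 in LCN2 and 1763, 1443, 1755 and 1901 in GFP. LCN2 replicate 1 was the highest of 8 for each, at 2.15 times the next sample for Cxcl9 and 1.96 times for Cxcl10, and Irf1, at 1.73 times the next sample, had the smallest margin of the 9 gamma-type members.

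**Figure D2:**
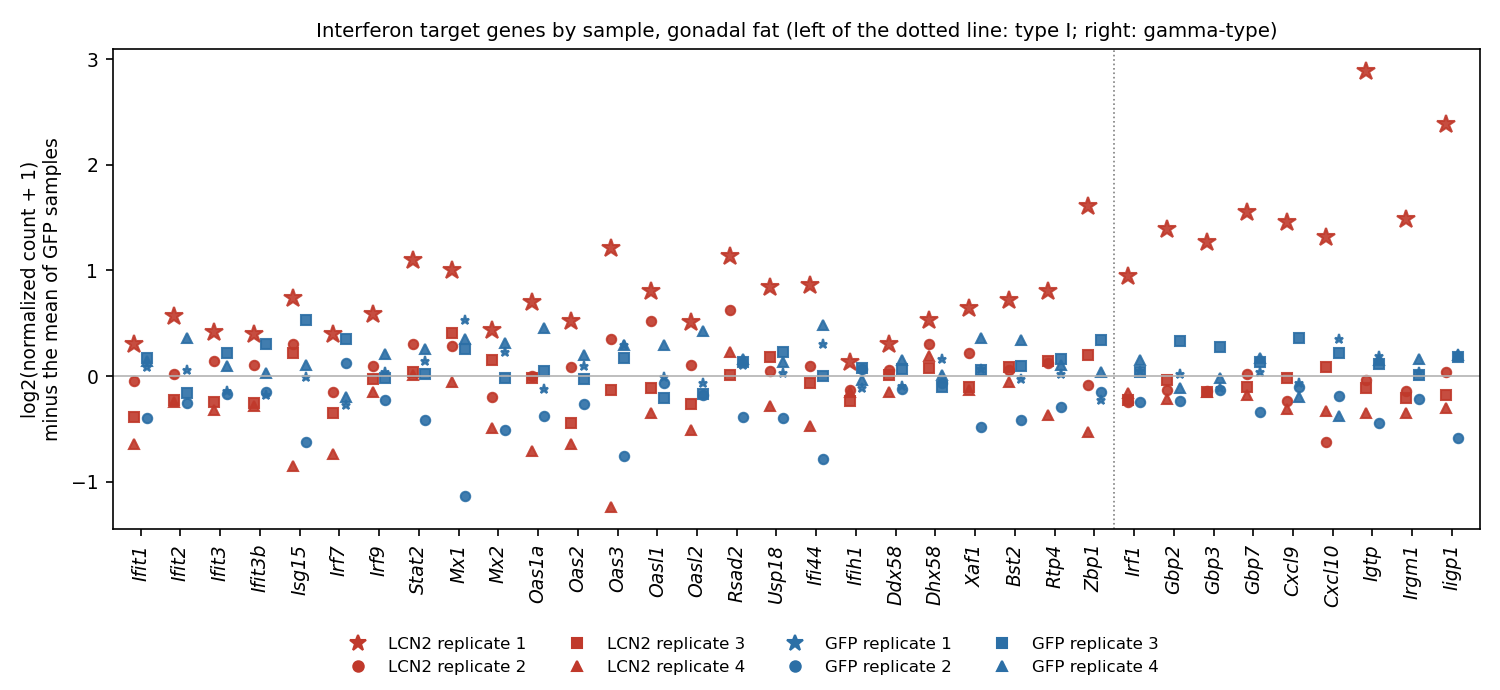
Every member in gonadal fat (x axis, type I targets left and gamma-type targets right of the dotted line): log2(normalized count + 1) of each sample minus the mean of the 4 GFP samples (y axis). LCN2 replicate 1 is the topmost point for all 34 members, furthest for Igtp and Iigp1. The other 3 LCN2 samples overlap the GFP samples except for Gbp3 and Ifih1, where they lie below all GFP samples.

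In subcutaneous fat Igtp and Iigp1 again stood out, while the chemokines did not. Igtp had rlog values of 11.18, 9.52, 9.40 and 9.44 in LCN2 samples 1 to 4 and 9.99, 9.82, 9.45 and 9.76 in GFP samples 1 to 4. LCN2 replicate 1 was 1.19 above the next sample, and GFP replicates 1, 2 and 4 lay above the other 3 LCN2 samples. Iigp1 had 12.75, 11.40, 11.13 and 11.20 in LCN2 and 11.05, 11.32, 11.52 and 11.39 in GFP, with LCN2 replicate 1 1.23 above the next sample. The differences between groups were 0.13 ± 0.38 for Igtp and 0.30 ± 0.34 for Iigp1 (rlog, ± SE; limma adjusted p = 0.889 and 0.683).

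Gbp7 had rlog values of 11.77, 10.93, 10.88 and 10.90 in LCN2 and 10.85, 10.76, 10.95 and 11.17 in GFP, and Gbp2 had 11.85, 11.22, 11.35 and 11.07 in LCN2 and 11.11, 10.97, 11.19 and 11.00 in GFP. Irgm1 had 10.73, 9.82, 9.82 and 9.75 in LCN2 and 10.29, 10.08, 9.78 and 9.99 in GFP, so that GFP replicates 1, 2 and 4 lay between the high LCN2 sample and the rest. Gbp3 had 11.23, 10.65, 10.64 and 10.53 in LCN2 and 10.52, 10.53, 10.62 and 10.50 in GFP. The GBP genes thus had 1 high sample too, with margins below 1 on the rlog scale. Cxcl9 had 10.58, 10.29, 10.18 and 10.03 in LCN2 and 10.31, 9.87, 10.13 and 10.36 in GFP, and Cxcl10 had 7.27, 6.91, 6.88 and 7.01 in LCN2 and 7.27, 6.79, 7.07 and 7.05 in GFP. For Cxcl10 and for Irf1, at 11.30, 10.72, 10.76 and 10.86 in LCN2 and 11.29, 11.00, 10.82 and 11.02 in GFP, LCN2 replicate 1 and GFP replicate 1 were level.

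The type I targets also peaked in LCN2 replicate 1, with smaller steps. In gonadal fat LCN2 replicate 1 exceeded the mean of the other 3 LCN2 samples by a median of 1.64 (range 1.16 to 3.06) over the 9 gamma-type members and 0.78 (0.31 to 1.75) over the 25 type I members, on the log2 scale. In subcutaneous fat the medians were 0.63 (0.34 to 1.73) and 0.49 (0.22 to 1.14) on the rlog scale. The 2 ranges overlapped in both depots, and no test was made between the classes.

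Among the transcription factors of the type I pathway, Stat2, a part of the ISRE-binding complex, had 3073, 1768, 1471 and 1444 normalized counts in LCN2 and 1583, 1071, 1452 and 1715 in GFP gonadal samples. Irf9, the DNA-binding part of that complex, had 1428, 1013, 931 and 857 in LCN2 and 974, 809, 940 and 1096 in GFP. Irf7, which amplifies type I interferon production, had 1532, 1043, 914 and 697 in LCN2 and 959, 1267, 1478 and 1014 in GFP. Stat2 showed the high sample most clearly, at 1.74 times the next, whereas Irf7 in LCN2 replicate 1 was close to GFP replicate 3. The differences between groups were 0.36 ± 0.25 for Stat2, 0.13 ± 0.16 for Irf9 and −0.21 ± 0.24 for Irf7 (log2, ± SE). In subcutaneous fat Irf7 had rlog values of 10.61, 10.11, 10.08 and 9.93 in LCN2 and 10.31, 10.60, 10.32 and 10.47 in GFP, so that LCN2 replicate 1 and GFP replicate 2 were level and the other 3 LCN2 samples lay below every GFP sample.

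Of the nucleic acid sensors, Zbp1, which binds Z-form nucleic acid and can start necroptosis, had a step like those of the GBP genes, with 779, 240, 293 and 177 normalized counts in LCN2 and 218, 230, 322 and 261 in GFP gonadal samples. LCN2 replicate 1 was at 2.41 times the next sample. In subcutaneous fat Zbp1 had rlog values of 9.40, 8.03, 8.52 and 8.24 in LCN2 and 8.99, 8.87, 8.34 and 8.36 in GFP. GFP replicates 1 and 2 came next after LCN2 replicate 1, which was 0.41 above GFP replicate 1. The RNA sensors of the RIG-I family had smaller steps. Ifih1, which encodes MDA5, had 1661, 1377, 1282 and 1365 normalized counts in LCN2 and 1401, 1583, 1598 and 1473 in GFP gonadal samples, and Ddx58, which encodes RIG-I, had 1787, 1513, 1457 and 1307 in LCN2 and 1356, 1336, 1521 and 1612 in GFP. Dhx58, which encodes LGP2, had 405, 348, 297 and 320 in LCN2 and 313, 269, 262 and 283 in GFP. Dhx58 was the member with the smallest p in gonadal fat, with a difference of 0.28 ± 0.12 (log2, ± SE; limma adjusted p = 0.326) and only LCN2 replicate 3 inside the GFP range.

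The IFIT proteins bind viral RNA and block its translation. Ifit1 had 610, 480, 378 and 316 normalized counts in LCN2 and 523, 376, 557 and 545 in GFP gonadal samples. Ifit2 had 1083, 743, 624 and 617 in LCN2 and 761, 612, 656 and 941 in GFP. Ifit3 had 1605, 1325, 1016 and 962 in LCN2 and 1089, 1071, 1402 and 1285 in GFP. The margin of LCN2 replicate 1 was small for these genes, and the differences between groups were −0.19 ± 0.21, 0.03 ± 0.20 and −0.00 ± 0.17 for Ifit1, Ifit2 and Ifit3 (log2, ± SE). Ifit3 shares 51.2% of its 50-base windows with its near-copy Ifit3b, so their counts are uncertain where the counting could split reads between them. In subcutaneous fat Ifit2 had rlog values of 9.85, 9.51, 9.40 and 9.36 in LCN2 and 9.22, 9.29, 9.07 and 9.43 in GFP, a difference of 0.28 ± 0.12 (± SE; limma adjusted p = 0.353). Only GFP replicate 4 reached into the LCN2 range, and the same held for Rsad2, which encodes the antiviral enzyme viperin, at 9.97, 9.54, 9.39 and 9.52 in LCN2 and 8.95, 9.08, 9.14 and 9.76 in GFP. Rsad2 in gonadal fat had 1603, 1122, 735 and 856 normalized counts in LCN2 and 782, 555, 798 and 815 in GFP, a difference of 0.50 ± 0.24 (log2, ± SE; limma adjusted p = 0.369).

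Isg15, the ubiquitin-like modifier with 3 ISRE matches above, had 289, 214, 202 and 95.3 normalized counts in LCN2 and 172, 112, 250 and 186 in GFP gonadal samples. Usp18, which removes Isg15 from proteins and damps the type I receptor, had 396, 227, 248 and 181 in LCN2 and 224, 167, 258 and 241 in GFP. Both were highest in LCN2 replicate 1, and LCN2 replicate 4 was the lowest of the 8 for Isg15. The oligoadenylate synthetases activate RNase L when they meet double-stranded RNA. Oas2 had 1331, 979, 680 and 591 in LCN2 and 986, 770, 906 and 1062 in GFP, and Oas3, the least abundant member per length, had 187, 102, 72.6 and 33.1 in LCN2 and 98.1, 46.8, 90.1 and 97.8 in GFP. Oas1a shares 57.6% of its 50-base windows with Oas1g, and its 507, 310, 307 and 190 normalized counts in LCN2 and 285, 239, 320 and 425 in GFP are uncertain for that reason. For these 3 synthetases LCN2 replicate 1 lay above, and LCN2 replicate 4 below, every GFP sample. For Oas3 the lower side rests on low counts, 33.1 against 46.8 in GFP replicate 2.

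Mx1 and Mx2 are dynamin-like GTPases that block viruses, and the Mx1 allele of C57BL/6 mice is known to be defective as a protein. Mx1 had 191, 116, 126 and 91.3 normalized counts in LCN2 and 137, 42.7, 113 and 121 in GFP gonadal samples, with GFP replicate 2 the lowest. In subcutaneous fat Mx1 had rlog values of 7.60, 6.81, 7.16 and 7.09 in LCN2 and 8.08, 7.53, 6.81 and 6.98 in GFP, and Oas3 had 7.17, 6.16, 6.60 and 6.46 in LCN2 and 7.55, 7.18, 6.42 and 6.56 in GFP. GFP replicates 1 and 2 were high for both. These 2 subcutaneous GFP samples also held more B cell and lymph node transcripts, at a mean rlog of 10.28 and 9.30 over 10 markers, against 5.87 and 5.91 in the other GFP samples and 5.77 to 8.59 in LCN2 samples. The LCN2 minus GFP difference was −0.18 ± 0.29 for Mx1, −0.33 ± 0.29 for Oas3 and −0.09 ± 0.30 for Zbp1 with all samples (rlog, ± SE), and 0.27 ± 0.21 for Mx1, 0.11 ± 0.26 for Oas3 and 0.20 ± 0.35 for Zbp1 without GFP replicates 1 and 2. The sign turned for 6 of 25 type I and 1 of 9 gamma-type members in that fit, and none was called in either. LCN2 replicate 4, the LCN2 sample at 8.59 for the lymph node markers, was kept there. Such samples were thus left out on the GFP side only. GFP replicates 1 and 2 were the highest GFP samples for Mx1, Oas3 and Zbp1. Leaving them out therefore had to raise these differences, and the part of lymph node tissue in them was not tested. Among the remaining type I targets, Bst2, the tetherin that holds virions at the cell surface, had 1833, 1158, 1179 and 1071 normalized counts in LCN2 and 1090, 836, 1192 and 1414 in GFP gonadal samples. Mx2, Ifit3b, Oasl1, Oasl2, Ifi44, Xaf1 and Rtp4 likewise had their highest gonadal value in LCN2 replicate 1 and overlapping groups.

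**Figure D3:**
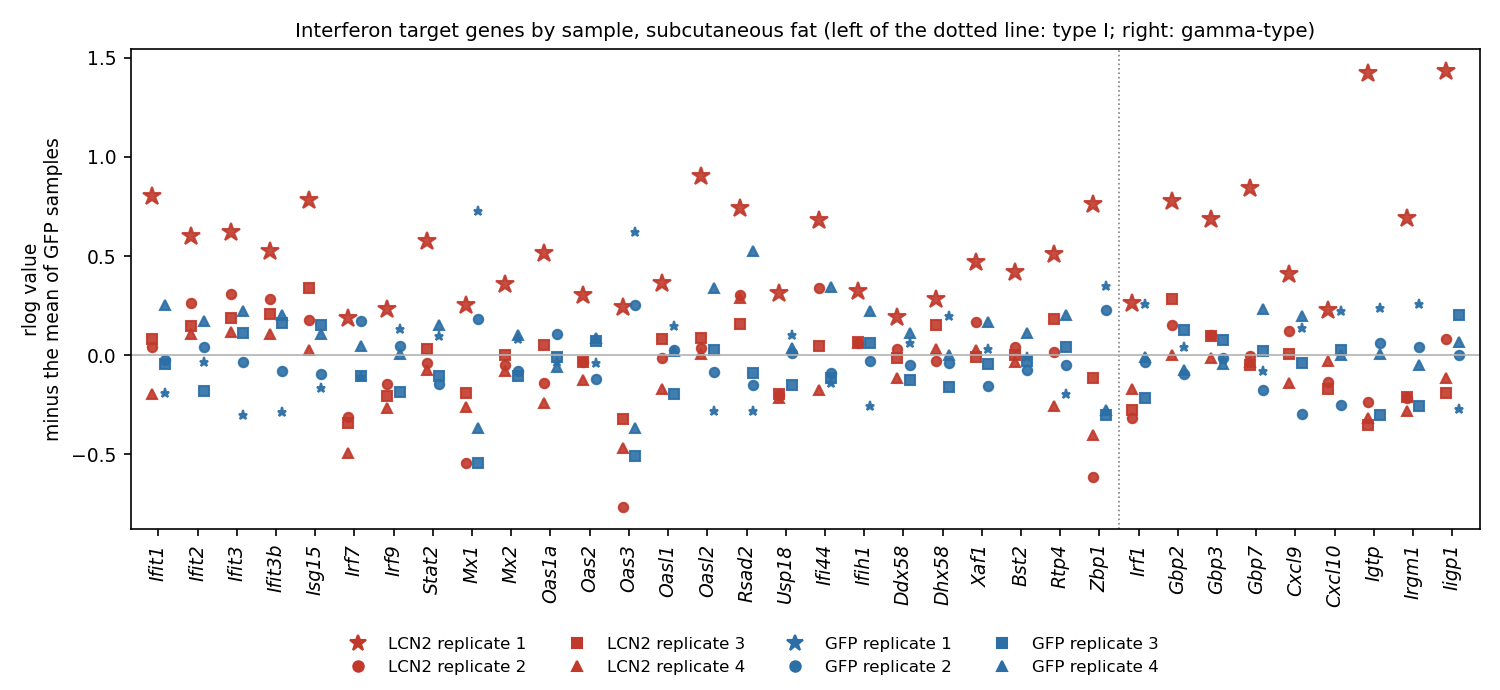
Every member in subcutaneous fat (x axis, type I targets left and gamma-type targets right of the dotted line): rlog value of each sample minus the mean of the 4 GFP samples (y axis). LCN2 replicate 1 is the topmost point for 32 members, and GFP replicate 1 lies above it for Mx1 (8.08) and Oas3 (7.55).

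The comparison of LCN2 with GFP turned with LCN2 replicate 1. Leaving out this sample, picked for its high values, had to lower the difference of every member. Groups newly apart could then only be lower in LCN2, so these directions are no separate result. With all samples 9 of 9 gamma-type and 16 of 25 type I members were higher in LCN2 in gonadal fat, with median differences of 0.22 and 0.10, where 52% of all genes were higher and the median over all genes was 0.01. Without LCN2 replicate 1, 0 of 9 gamma-type and 6 of 25 type I members were higher, and the medians were −0.17 and −0.14. The gonadal type I median was also below 0, at −0.06, without GFP replicate 2, the lowest GFP sample for most of these genes. In subcutaneous fat 6 of 9 gamma-type and 19 of 25 type I members were higher in LCN2 with all samples, with medians of 0.13 and 0.11, where 49.8% of all genes were higher and the median over all genes was −0.00. Without LCN2 replicate 1, 2 of 9 and 11 of 25 were higher, and the medians were −0.08 and −0.02. No member was called with or without that library. Without it the groups stood apart for Gbp3 and Ifih1 in gonadal fat, where 15.1% of all genes stood apart in that fit, and for Irf7 and Usp18 in subcutaneous fat, where 14.3% did, all 4 lower in LCN2. These shares of the members were below those of all genes.

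**Figure D4:**
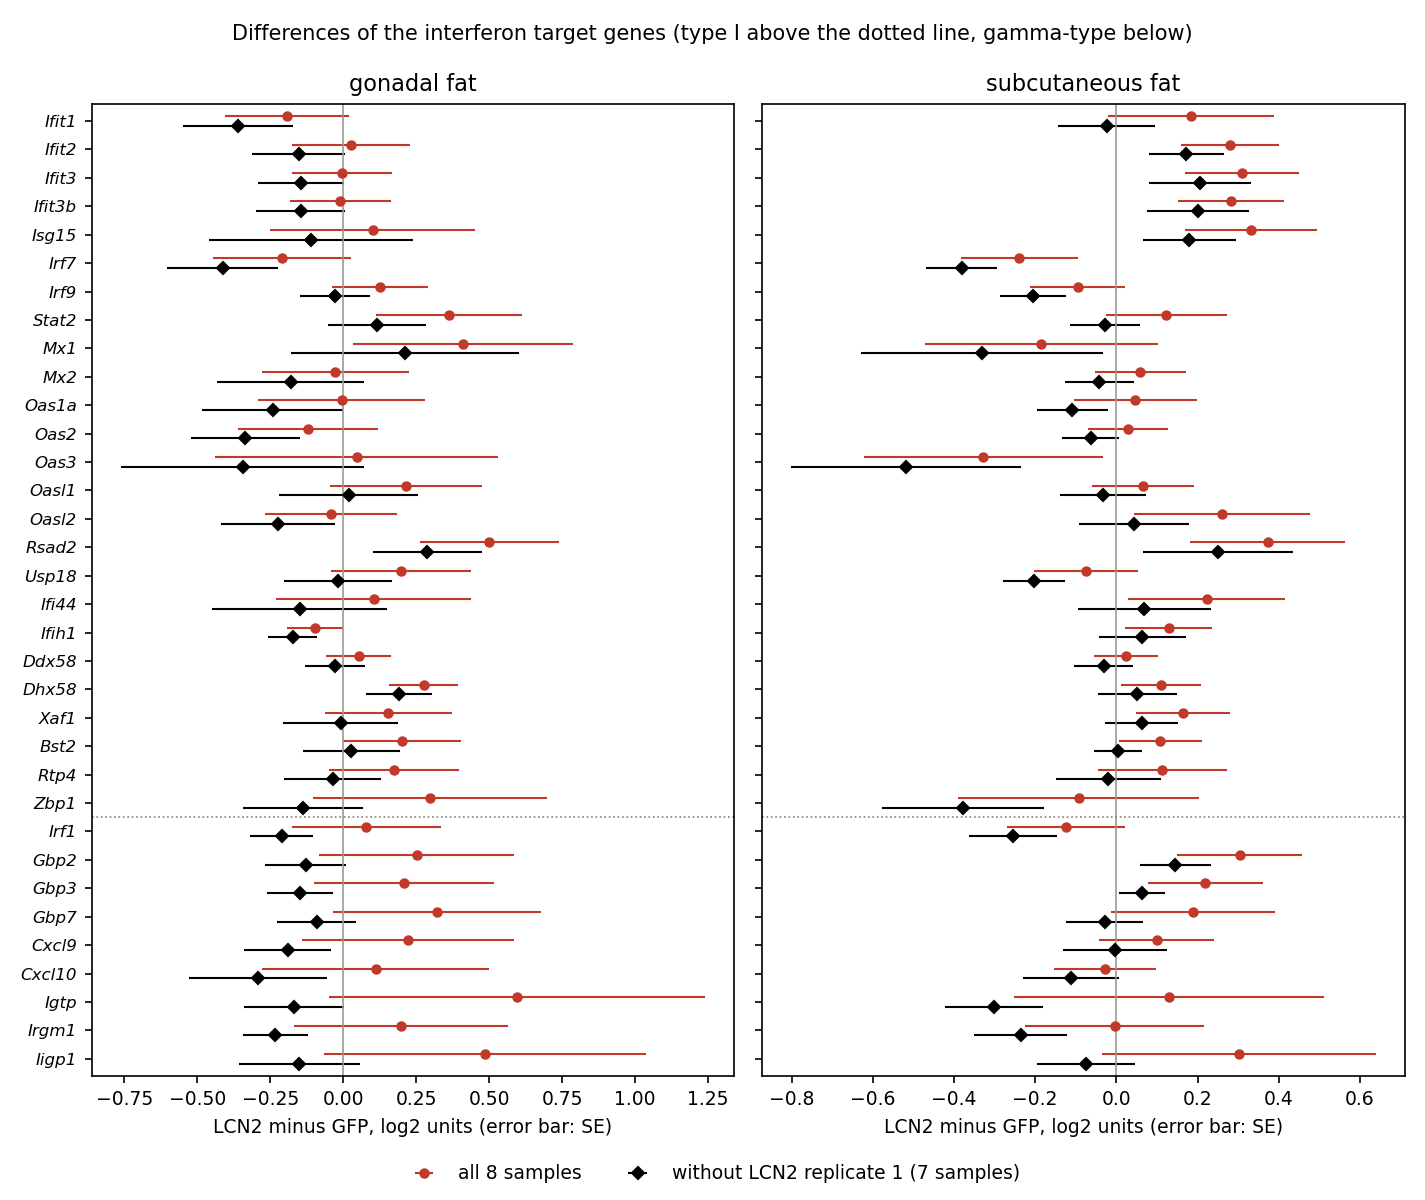
LCN2 minus GFP difference ± SE for each member (rows) in gonadal fat (log2 scale) and subcutaneous fat (rlog scale), with all 8 samples and without LCN2 replicate 1. In gonadal fat the gamma-type members lie above 0 with all samples (median 0.22) and below 0 without that sample (median −0.17).

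The excess in LCN2 replicate 1 was rare among genes and held many interferon targets. In gonadal fat 62 of 19536 genes (0.317%) were at least 1 above every other sample on the log2 scale in this sample. They included 7 gamma-type members and Zbp1, 11 other genes of the pathway list and 43 genes outside it. That list is not complete: Gbp10, Gbp11 and Tgtp1, of the same families as listed genes, are among the 43. A gene outside the list can thus still be an interferon target. Igtp ranked 2 in this order, 2.70 above the next sample, and Iigp1 ranked 7, 2.18 above it. The other pathway genes were Tgtp2, Gbp4, Irgm2, Gbp8, Gbp5, Gbp6, Ifi47, Cd274, Ido1, Tap1 and Socs1, picked out after their values were seen. In subcutaneous fat 13 of 20302 genes (0.064%) were that far above, among them Iigp1, Igtp and Irgm2. Igtp shares 11.8% of its 50-base windows with Irgm2, so their counts are not fully separate.

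Samples were also compared across depots by replicate number. Across 19109 genes tested in both depots, the deviation of gonadal LCN2 replicate 1 from its group mean correlated with that of subcutaneous LCN2 replicate 1 at r = 0.45, and with subcutaneous LCN2 replicates 2, 3 and 4 at −0.15, −0.31 and −0.03. LCN2 replicates 2, 3 and 4 correlated with their own number at 0.15, 0.45 and 0.09, and all 4 LCN2 samples correlated best with their own number. GFP replicates 1 to 4 correlated with their own number at 0.10, −0.08, 0.18 and 0.27, and 2 of the 4 correlated best with it. This is a correlation across genes, which are not independent replicates, and deviations inside a group of 4 are tied to each other. The labels do not say that a number marks 1 mouse.

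**Figure D5:**
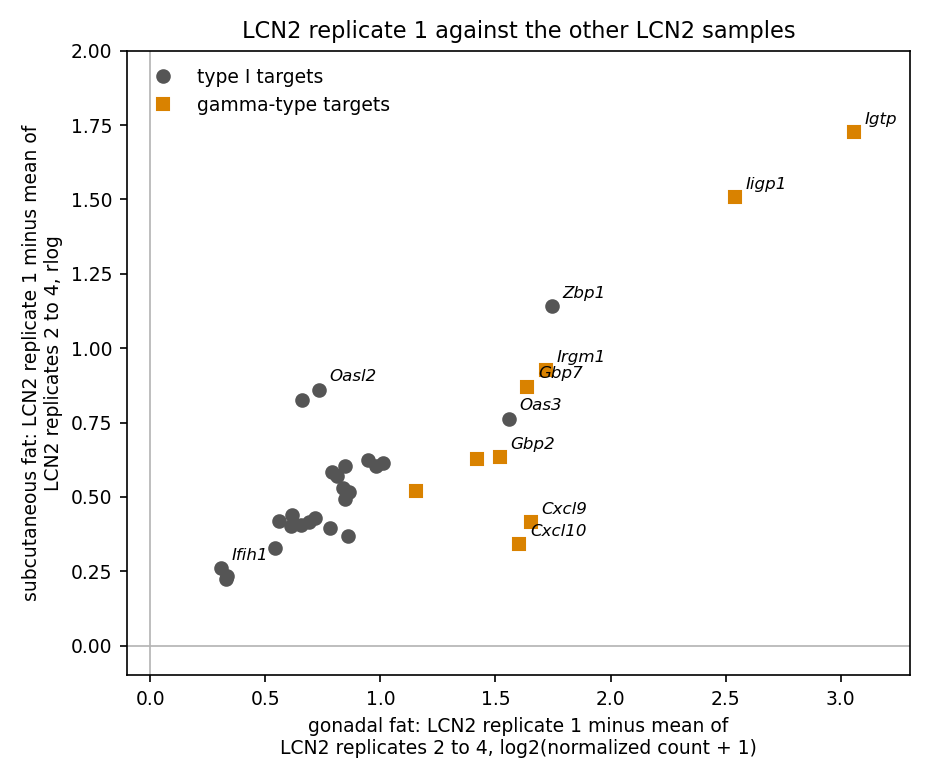
LCN2 replicate 1 minus the mean of LCN2 replicates 2 to 4 for each member, in gonadal fat (x axis, log2 scale) and in subcutaneous fat (y axis, rlog scale), with gamma-type and type I targets marked apart. All 34 points lie above 0 on both axes, and Igtp sits furthest out at 3.06 and 1.73.

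Immune cell markers were given beside these values because bulk fat mixes cell types, and fewer cells of a type and less RNA per cell cannot be told apart. Macrophage markers, 12 of 12 present, summed to 23125 to 40124 normalized counts in LCN2 and 28049 to 37309 in GFP gonadal samples, and LCN2 replicate 1 was the highest at 40124. T and NK cell markers, 12 genes, summed to 412 to 770 in LCN2 and 245 to 603 in GFP, and LCN2 replicate 1 was the highest at 770. Both sums were highest in the sample that was highest for the interferon targets. Of the single markers, 6 of 12 macrophage and 5 of 12 T and NK cell genes were highest in that sample, where 9.5% of all genes were. Markers of plasmacytoid dendritic cells, the cells that make much type I interferon, summed to 75.2 to 133 in LCN2 and 146 to 183 in GFP gonadal samples. These sums did not overlap, but of the 2 markers past the filter the groups stood apart for 1 only. The 2 markers differed by −0.95 and −0.17 on the log2 scale (limma adjusted p = 0.142 and 0.899), and neither was called. In subcutaneous fat the mean rlog of these markers was 4.69 to 5.08 in LCN2 and 4.87 to 6.31 in GFP, which overlapped. In subcutaneous fat macrophage markers had a mean rlog of 10.11 to 10.64 in LCN2, the highest in replicate 1, and 10.10 to 10.41 in GFP, and T and NK cell markers had 5.40 to 5.98 in LCN2 and 5.57 to 7.60 in GFP. The part of these cells in the interferon values was not tested. Hepatocyte transcripts summed to 17454, 42193, 4695 and 1966 in LCN2 and 14906, 1898, 2814 and 2555 in GFP gonadal samples, and skeletal muscle transcripts reached 45535 in LCN2 replicate 4.

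Of the interferon genes themselves only Ifng and Ifnk were analysed here, and both had few reads. Ifng, which encodes interferon gamma, had 15, 2, 5 and 1 recovered reads in LCN2 and 8, 1, 6 and 8 in GFP gonadal samples. The exact 95% Poisson interval of LCN2 replicate 1 was 8.40 to 24.7 reads, which covers counting error only. It overlapped the intervals of LCN2 replicate 3 and GFP replicates 1, 3 and 4, and lay above those of LCN2 replicates 2 and 4 and GFP replicate 2. In subcutaneous fat Ifng lay at rlog 2.32 to 2.49 in LCN2 and 2.34 to 2.63 in GFP. Ifnk, a type I interferon of epithelia, had 6, 2, 0 and 0 reads in LCN2 and 1, 0, 0 and 1 in GFP gonadal samples. Neither gene passed the filter on low values in either depot, so neither was tested between the groups.

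In gonadal fat no step in LCN2 replicate 1 was seen in the receptors. Ifnlr1 was the only receptor highest in that replicate in subcutaneous fat, 0.05 above the next sample and 0.51 above the mean of the other LCN2 samples (rlog). None of the 6 receptor genes was highest in gonadal LCN2 replicate 1, and 3 were higher and 3 lower in LCN2. The differences were 0.08 ± 0.08 for Ifnar1, 0.22 ± 0.09 for Ifnar2, −0.26 ± 0.12 for Ifngr1 and 0.26 ± 0.11 for Ifngr2 (log2, ± SE), and −0.51 ± 0.36 for Ifnlr1 and −0.01 ± 0.09 for Il10rb, the subunits of the lambda interferon receptor. None passed limma's adjusted p, which was 0.302 for Ifnar2 and 0.320 for Ifngr2. Of the kinases, Jak1, Jak2 and Tyk2 differed by 0.07 ± 0.08, 0.03 ± 0.07 and 0.02 ± 0.08. Stat3, a factor that serves many cytokines, had 5219, 4763, 4827 and 4833 normalized counts in LCN2 and 4326, 4343, 3762 and 4415 in GFP gonadal samples. Its groups did not overlap (0.22 ± 0.08, limma adjusted p = 0.250), where 9.11% of all gonadal genes stood apart.

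Of 30 further induced genes of the pathway, 29 were higher in LCN2 and 27 were highest in LCN2 replicate 1 in gonadal fat, with a median difference of 0.25. Of all gonadal genes 52% were higher and 9.5% highest there. In subcutaneous fat 18 were higher and 16 highest in that replicate, with a median of 0.07, where 49.8% and 10.2% of all genes were. These genes respond to shared signals and are not 30 independent observations. Without LCN2 replicate 1 the number higher in LCN2 became 16 of 30 with a median of 0.02 in gonadal fat. In subcutaneous fat it became 12 of 30 with a median of −0.08. That sample was the highest for most of these genes, so a fall was built into leaving it out. None was called in either depot with all samples. Cd274, which encodes the checkpoint ligand PD-L1, had 3237, 1206, 1262 and 1120 normalized counts in LCN2 and 741, 484, 858 and 675 in GFP gonadal samples. Its groups did not overlap, unlike those of all members (1.18 ± 0.33 on the log2 scale, limma adjusted p = 0.185). Among sensors and adaptors Irf8, a factor of macrophages and dendritic cells, had 1055, 1130, 1222 and 1055 in LCN2 and 659, 461, 707 and 785 in GFP, and LCN2 replicate 1 was not the highest (0.80 ± 0.16, limma adjusted p = 0.109). Tlr3, an endosomal sensor of double-stranded RNA, had 1172, 1062, 941 and 1002 in LCN2 and 854, 707, 803 and 904 in GFP (0.36 ± 0.10, limma adjusted p = 0.190). The groups stood apart for Irf8 and Tlr3 as well, and neither passed the test. In gonadal fat they stood apart for 1 of the 30 further induced genes, 2 of 14 sensors and adaptors and 0 of 6 receptors. Of all gonadal genes 9.11% stood apart. The remaining genes named by the same rule were Ido1 (1.28 ± 0.59), Socs1 (0.63 ± 0.41) and Isg20 (−0.42 ± 0.18) in gonadal fat. In subcutaneous fat they were Parp9 (0.28 ± 0.09), Eif2ak2 (0.20 ± 0.07), Tlr3 (0.24 ± 0.08), Tlr7 (−0.33 ± 0.18), Ptpn11 (0.17 ± 0.09) and Ptpn6 (−0.66 ± 0.49).

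Per kilobase of exon, the mean normalized count over the 8 gonadal samples was highest for Bst2 (1353) and Gbp2 (1157), followed by Ifit3 (699), Cxcl9 (621) and Igtp (620), and lowest for Mx2 (23.9) and Oas3 (12.9). The mean of Igtp rests on LCN2 replicate 1, so its place in this order does too. Exons of Cxcl10, Usp18, Dhx58 and Irf1 overlap genes on the opposite strand over 5.91%, 4.44%, 4.31% and 3.40% of their bases, and whether the counting used strand is not given in the sources used here.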

How the data were processed

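RNA was measured by sequencing of mRNA libraries from frozen gonadal and subcutaneous fat, made with a KAPA stranded mRNA kit, per the labels' protocols. Per the submitters' processing notes, HISAT2 and DESeq2 were used with GRCm38 (mm10). Not given in the sources used here are the versions, the read counter, its use of strand and the gene models. The deposited gonadal values are normalized counts (a signal scale): multiplying a column by 1 factor per sample returned whole reads for 100% of values within 1e-06. The deposited subcutaneous values are rlog, a log2 scale from the authors that shrinks low genes, and hold no depth. The log2(value + 1) scale understates changes of low genes.

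Each depot was fitted alone, with LCN2 against GFP and 4 samples each, by limma 3.58.1 with a mean-variance trend in R 4.3.3, two-sided, on log2(normalized count + 1) for genes with a mean of at least 10, or on rlog for genes with a mean of at least 3. P-values were adjusted by Benjamini-Hochberg over all genes tested, with a threshold of 0.05. All 34 members passed these filters. edgeR 4.0.16 and DESeq2 1.42.0 on recovered reads, other scalings, filters and left-out libraries were alternatives. The fits were tested on simulated data. The members and lists were chosen with earlier results of these data known. Named genes were all members, Lcn2, every receptor and JAK-STAT gene but 1 that is not reported here, and of each other pathway group those called, up to 4, or the 2 with the smallest p where none was. Genes named outside that rule were picked after their values were seen. Promoters came from RefSeq, matched by symbol, and exons and shared 50-base windows from GENCODE. Interferon genes other than Ifng and Ifnk, and the marker Ly6g, were not analysed here.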

Additional observations from a re-analysis of the deposited data

Results flagged for a closer look

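In 144 sets of 4 samples (each member and each list mean, by depot and vector), 27 had 1 sample whose gap to the nearest other sample was a share of the whole range above Dixon's 95% critical value. About 1 set in 20 does so by chance, and the sets share samples.

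In gonadal fat LCN2 replicate 1 stood apart above the other LCN2 samples for 8 members. Its gap was 0.994 of the range for Gbp3, 0.929 for Irf1, 0.905 for Igtp, 0.890 for Irgm1, 0.887 for Gbp2, 0.881 for Gbp7, 0.874 for Iigp1 and 0.835 for Cxcl9. The mean of the gamma-type list gave 0.919.

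In subcutaneous fat the same replicate number stood apart for 5 type I and 5 gamma-type members. The share was 0.970 for Ifih1, 0.957 for Usp18, 0.913 for Oasl2, 0.840 for Stat2 and 0.831 for Bst2. It was 0.953 for Gbp7, 0.934 for Igtp, 0.927 for Irgm1, 0.832 for Gbp3 and 0.831 for Iigp1, and 0.917 for the mean of the gamma-type list.

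In gonadal fat GFP replicate 2 stood apart below the other GFP samples for Iigp1 at 0.972, Rsad2 at 0.893, Oas3 at 0.885, Igtp at 0.873, Ifit1 at 0.842 and Mx1 at 0.837. In subcutaneous fat GFP replicate 4 stood apart above the others for Ifi44, at 0.902. Why these samples stand apart was not tested.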

How the results depend on the processing

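No member was called in either depot under any alternative run. The smallest adjusted p of a member was 0.237 in gonadal fat (DESeq2) and 0.0989 in subcutaneous fat (limma with sample quality weights). The number of all gonadal genes called was 20 (8 higher, 12 lower in LCN2). It was 6 (4 higher, 2 lower) with scaling by library totals, 11 with a filter at 50, 6 without the trend, 7 in edgeR and 818 in DESeq2. The number was 0 without LCN2 4 and GFP 2, each the highest of its group in muscle transcripts. In that fit 861 genes were higher and 832 lower at an unadjusted p under 0.05. LCN2 1 and LCN2 2 were kept there, although their muscle transcripts (6922 and 3361 summed normalized counts) exceeded those of GFP 2 (3088). Without the libraries high in hepatocyte transcripts (LCN2 1, LCN2 2 and GFP 1) 0 genes were called, with 797 higher and 834 lower at an unadjusted p under 0.05. When each replicate was left out 1 to 66 were called (27, 15, 1 and 3 without LCN2 1 to 4, and 2, 1, 1 and 66 without GFP 1 to 4). Without the libraries high in hepatocyte transcripts, the gonadal type I median was −0.22 and the groups stood apart for 8 members (Dhx58 higher, and Gbp3, Ifih1, Ifit3, Ifit3b, Irf7, Oas2 and Oasl2 lower in LCN2), where 26.6% of all genes stood apart. Leaving out each replicate gave 0 to 2 members with groups apart in gonadal fat (10.9% to 17.9% of all genes) and 0 to 4 in subcutaneous fat (8.05% to 16.3%). Without subcutaneous GFP 1 and GFP 2, high in lymph node transcripts, 0 genes were called (538 higher and 384 lower at an unadjusted p under 0.05). LCN2 4, at a mean rlog of 8.59 also high in them, was kept in that fit. When each replicate was left out, the median differences ranged from −0.14 to 0.25 (gonadal type I), −0.17 to 0.40 (gonadal gamma-type), −0.02 to 0.15 (subcutaneous type I) and −0.08 to 0.26 (subcutaneous gamma-type). The lowest value was without LCN2 replicate 1 in each. In edgeR and DESeq2 the gonadal gamma-type median was 0.41. The cause of these changes was not tested.

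LCN2 and GFP samples with the same number correlated at −0.36 to 0.42 in gonadal and −0.36 to 0.34 in subcutaneous fat, and 2 of 4 and 1 of 4 correlated best with their own number. The labels do not say what a shared number stands for. Deviations inside a group of 4 are tied to each other, so these correlations cannot decide whether such samples were handled together. With the number as a replicate block, 0 gonadal genes (1330 higher and 1306 lower at an unadjusted p under 0.05), 0 subcutaneous genes and 0 members were called.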

Other observations

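Genes outside the pathway list that stood highest in gonadal LCN2 replicate 1 included some of fatty acid use and heat production. They are named here after their values were seen. Elovl3, a fatty acid elongase of brown fat, was 3.46 above the next sample on the log2 scale, the largest step of the 19536 genes. Fabp3, a fatty acid carrier of muscle and brown fat, was 2.19 above it, Pdk4, which restrains glucose oxidation, 1.46, and Ucp1, the uncoupling protein, 1.42. These genes were not compared between the groups here.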
